A study of Mus musculus with 12 samples.

Results

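The levels of 10 genes of the oxidative stress response and of metal binding were followed in mouse muscle that expressed the transcription factor Dux: Nfe2l2, Srxn1, Txnrd1, Prdx1, Gclc, Gclm, Hmox1, Nqo1, Mt1 and Mt2. They were taken by gene symbol from the count table, in which all 10 were present among 12752 genes, and all 10 were among the 12751 genes tested. The tibialis anterior muscles of male C57BL/6 mice aged 8 weeks received AAV:TET together with the empty vector AAV:MCS in one limb and with AAV:Dux in the other. The transgene is switched on by doxycycline, which some mice received in their chow (600 mg/kg) from 7 days after injection. There were 4 groups of 3 libraries. On normal chow, EV carried the empty vector and DUX the Dux vector, and EV_DOX and DUX_DOX were their counterparts given doxycycline. AAV:TET was therefore shared by every group, and the chow lasted 2 or 7 days, the labels not stating which applied to these libraries. Dux is the mouse counterpart of human DUX4, which is misexpressed in facioscapulohumeral muscular dystrophy.

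The library totals ran from 11880593 to 13811999 counts. Myofibre markers (12 of 12 measured) summed to between 146700 and 198000 CPM (read counts scaled to library size) in every library. AW822073, a gene annotated near Dux, had 37 to 60 counts in each DUX_DOX library and 0 to 2 in each of the other 9, and whether these reads come from the transgene was not tested. Tendon markers were far higher in EV 3 and EV_DOX 1 than in the other libraries. Markers of macrophages (23 of 24 measured, none at 0 in any library) summed to 154.5 to 215.9 CPM in EV_DOX and 385 to 551.4 CPM in DUX_DOX, and 20 of the 23 rose in that comparison. Myofibre markers summed to 181300 to 195200 CPM in EV_DOX and 146700 to 166000 CPM in DUX_DOX. The 7 satellite cell markers summed to 50.96 to 57.01 CPM in EV_DOX and 67.04 to 79.38 CPM in DUX_DOX, and the 10 endothelial markers to 595.4 to 646.1 CPM and 549.4 to 565.5 CPM. Only 2 of the 7 satellite markers rose, with a median log2 fold change of -0.05 over the 7. Of the 12 myofibre markers 4 fell, and of the 10 endothelial markers 1 fell. In the same comparison 14.9% of all genes tested were called higher and 10.3% lower, so the endothelial count is near the share of all genes. Whole muscle was measured, so fewer cells of a type and less RNA per cell cannot be told apart. The part of these shifts in the results below was not tested.

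The genes belong to a few linked systems. Nfe2l2 encodes Nrf2, a transcription factor that the adaptor Keap1 marks for degradation in unstressed cells. Oxidants and electrophiles modify Keap1, so that Nrf2 accumulates, pairs with a small Maf protein and binds antioxidant response elements in its target genes, and Nrf2 activity is therefore set largely at the protein. Among its classic targets, Gclc and Gclm encode the subunits of the enzyme that limits glutathione synthesis. Txnrd1 (thioredoxin reductase), Prdx1 (a peroxiredoxin that removes hydrogen peroxide) and Srxn1 (sulfiredoxin, which repairs overoxidised peroxiredoxins) form a thiol cycle. Hmox1 (haem oxygenase) breaks down haem, and Nqo1 reduces quinones. Mt1 and Mt2 encode metallothioneins, small cysteine-rich proteins that bind zinc and copper and are induced by metals through the factor Mtf1, by glucocorticoids and by several stresses.

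The promoters of the 3 genes that moved most in DUX_DOX are shown here, since the known routes of induction differ between them. Sequences are from RefSeq on GRCm38.p6 and hold the 250 bases before the annotated start site. Capitals mark matches, on either strand, to the antioxidant response element (TGACNNNGC or TGAGNNNGC) and to the related AP-1 site (TGACTCA or TGAGTCA) in Srxn1, and to the metal response element (TGCACNC or TGCGCNC) in Mt1 and Mt2. The Srxn1 window is chr2:152105274-152105523, that of Mt1 chr8:94178839-94179088 and that of Mt2 chr8:94172368-94172617, all on the plus strand.
Srxn1: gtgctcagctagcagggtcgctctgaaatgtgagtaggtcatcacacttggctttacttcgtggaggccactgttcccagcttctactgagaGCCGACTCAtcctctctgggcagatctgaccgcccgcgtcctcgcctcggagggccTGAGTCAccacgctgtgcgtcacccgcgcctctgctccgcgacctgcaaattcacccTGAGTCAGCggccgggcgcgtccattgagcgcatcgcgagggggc
Mt1: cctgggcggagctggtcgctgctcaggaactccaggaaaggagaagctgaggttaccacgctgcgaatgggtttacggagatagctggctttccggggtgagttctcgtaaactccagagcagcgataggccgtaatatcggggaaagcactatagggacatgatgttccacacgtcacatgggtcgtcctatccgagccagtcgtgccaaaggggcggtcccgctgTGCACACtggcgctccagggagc
Mt2: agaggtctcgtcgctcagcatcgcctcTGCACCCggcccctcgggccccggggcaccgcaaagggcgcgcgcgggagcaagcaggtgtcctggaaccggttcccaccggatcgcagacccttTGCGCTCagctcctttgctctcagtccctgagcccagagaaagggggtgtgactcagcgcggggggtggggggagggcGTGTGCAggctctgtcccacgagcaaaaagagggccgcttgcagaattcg

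Motifs were counted in the whole window of each gene, which adds the 50 bases after the start site. Of the 10 genes, 8 matched the promoter table. Srxn1 had 3 matches to the antioxidant response element and 2 to AP-1, at -102 to -96 and at -45 to -39, and the second AP-1 match lies inside an antioxidant response element at -45 to -37. Among 32851 promoter windows of the same length, 27.8% held the antioxidant response element, 0.63% held it 3 times or more, 5.2% held AP-1 and 0.222% held AP-1 at least 2 times. Prdx1 had 2 of each, with 1 AP-1 match inside an antioxidant response element. Nfe2l2 and Gclm had 1 antioxidant response element, Nqo1 had none in this window, and of 3 Txnrd1 start sites 1 had 1 match. Mt2 had 4 metal response elements, 3 of them before the start, and 1 antioxidant response element that contains an AP-1 match at -79 to -73. Mt1 had 3 metal response elements, at -23 to -17, 3 to 9 and 21 to 27, and 0 matches to either other motif in this window. Sites more than 250 bases before or more than 50 bases after the annotated start were not searched. The counts therefore depend on where that start is placed, and a gene without a match here may have one further away. Gclm, which did not pass the test in any comparison, also had 3 metal response elements, and 1.97% of all windows had 3 or more (25.7% had 1 or more). A match describes letters in a window and is not evidence of binding.

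**Figure D1:**
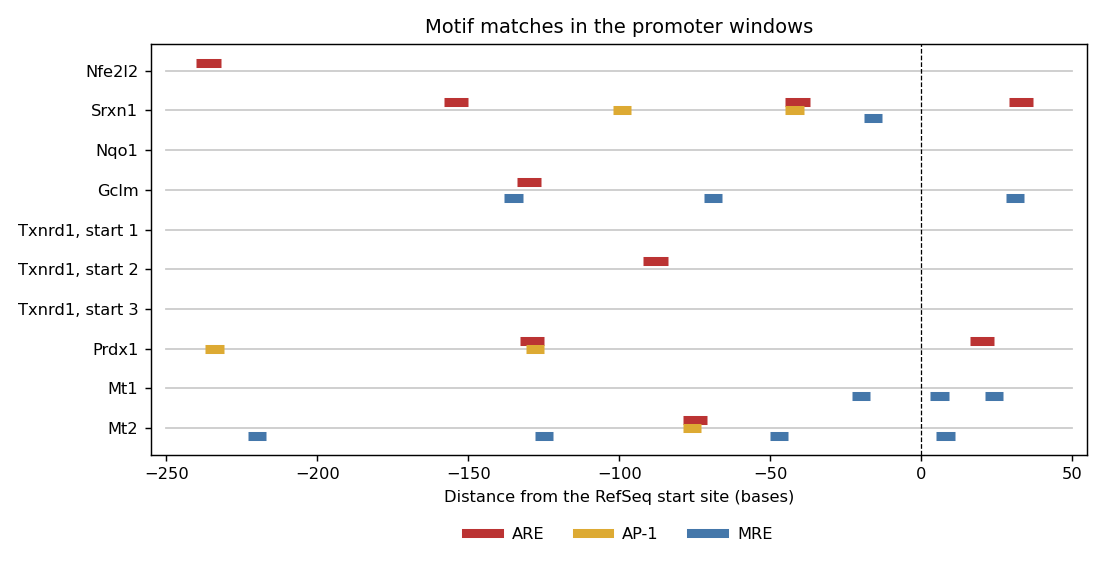
Matches to the antioxidant response element (ARE), the AP-1 site and the metal response element (MRE) by distance in bases from the RefSeq start site, 1 line per promoter window, 250 bases before to 50 after the start. Srxn1 carries 3 ARE and 2 AP-1 matches, Mt2 4 MRE matches and Mt1 3.

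The main comparison asked how these genes differed between Dux-expressing and control muscle on the same chow, DUX_DOX against EV_DOX. Mt2, Mt1, Srxn1, Hmox1 and Nfe2l2 rose, so that 5 of the 10 genes were called higher and 0 lower. Of all genes tested, 14.9% were called higher and 10.3% lower. Higher calls made up 59.1% of all calls here and 50.9% with upper-quartile factors. The 3 DUX_DOX libraries lay above all 3 EV_DOX libraries for 7 of the 10 genes and below them for 1, Nqo1. Such separation was seen for 38.7% of all genes, 21.4% higher and 17.3% lower. The median log2 fold change of the 10 was 0.36, against -0.01 for all genes. The 10 genes were chosen with earlier results of these data known. Here and below, their counts beside those of all genes are therefore descriptive and do not measure enrichment. Gclc, Gclm, Txnrd1, Prdx1 and Nqo1 did not pass the test. Calls are from edgeR's quasi-likelihood test at a Benjamini-Hochberg adjusted p under 0.05 over all genes, with log2 fold changes and their standard errors (SE). Levels are CPM scaled to library size by TMM factors, and group values are means with SD over 3 libraries.

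**Figure D2:**
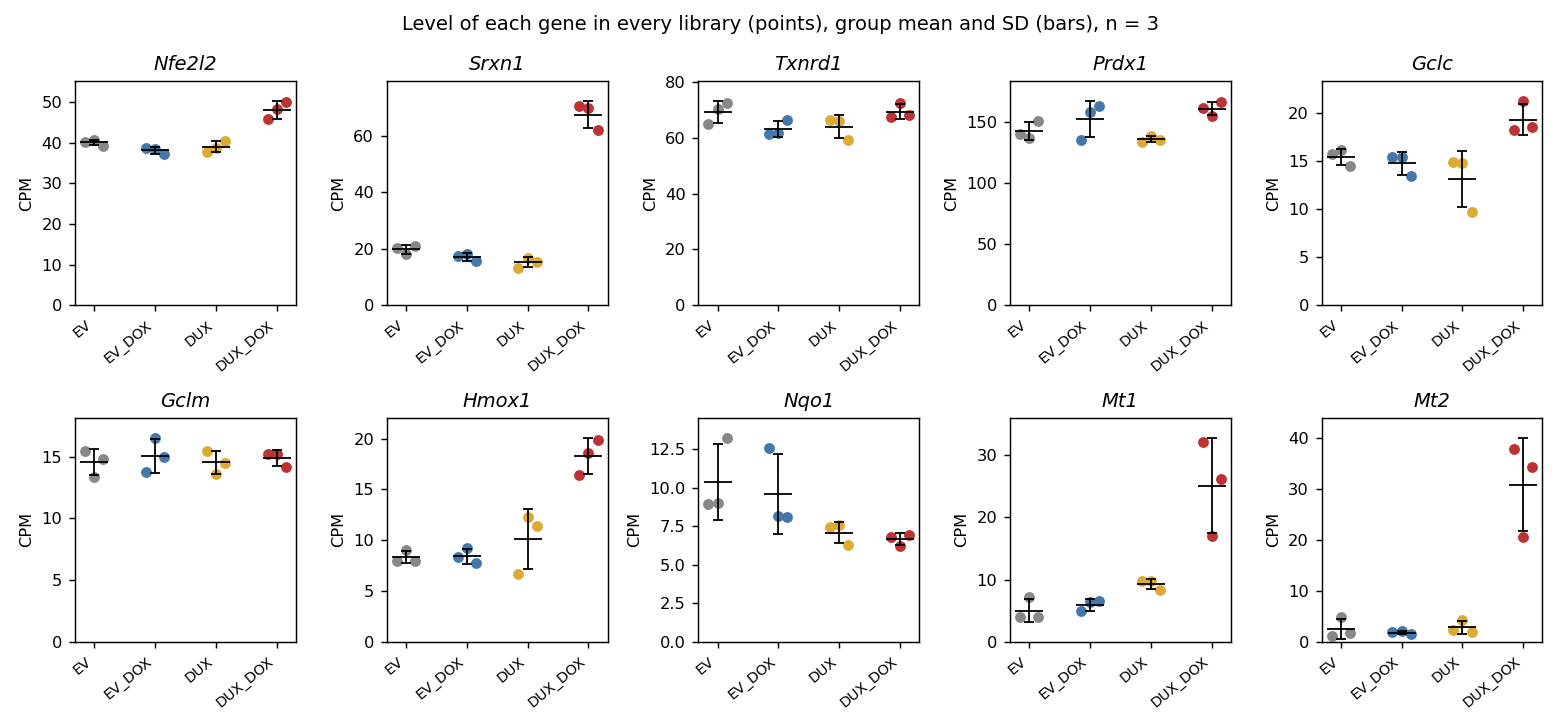
CPM of each gene (vertical axis, from 0) in every library (points) by group, with the group mean and SD (bars, n = 3). Srxn1, Hmox1, Mt1, Mt2, Nfe2l2 and Gclc lie higher in all 3 DUX_DOX libraries than in any other library, and Nqo1 has 2 high libraries outside the Dux groups. The share of all genes with DUX_DOX above every other library was not counted.

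Metallothioneins showed the largest rises. Mt2 (ENSMUSG00000031762, chromosome 8, 94172664 to 94173568, GRCm38) stood at 37.7, 20.5 and 34.2 CPM in DUX_DOX 1 to 3, and at 1.90, 2.09 and 1.49 CPM in EV_DOX 1 to 3. In EV it had 1.18, 4.81 and 1.69 CPM and in DUX 2.37, 4.23 and 1.94 CPM. The lowest DUX_DOX library was thus well above the highest of the other 9, with DUX_DOX 2 below its 2 partners. Its log2 fold change was 4.07 (SE 0.39, adjusted p = 4.78e-06), or 16.7-fold, in DUX_DOX against EV_DOX. Control levels rest on few reads, with 72 counts over the 3 EV_DOX libraries against 1223 over DUX_DOX. In addition, 73.5% of the exonic bases of Mt2 overlap Gm45774 on the opposite strand, and the labels do not say whether counting used strand, so the absolute level of Mt2 is uncertain.

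Mt1 (ENSMUSG00000031765, chromosome 8, 94179082 to 94180327) lies next to Mt2. Its level was 32.1, 17.0 and 26.1 CPM in DUX_DOX and 4.89, 6.43 and 6.49 CPM in EV_DOX. DUX_DOX 2 was again the lowest of its group, and the groups did not overlap. The log2 fold change was 2.08 (SE 0.24, adjusted p = 2.49e-05), a 4.22-fold rise. In EV, Mt1 had 4.0, 7.13 and 3.99 CPM, and in DUX, without doxycycline, 9.73, 9.77 and 8.29 CPM. All 3 DUX libraries were above all 6 empty vector libraries, yet the difference from EV did not pass (log2 fold change 0.88, SE 0.26, adjusted p = 0.204). It passed without EV 2, the highest EV library (1.21, adjusted p = 0.0459), in a range of adjusted p from 0.0459 to 0.505 over 20 alternatives.

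The metallothioneins differed in how far they moved. The ratio of Mt2 to Mt1 counts was 1.17, 1.20 and 1.31 in DUX_DOX, and 0.388, 0.325 and 0.229 in EV_DOX. In EV it was 0.294, 0.674 and 0.423, and in DUX 0.244, 0.433 and 0.234. Mt2 reads outnumbered Mt1 reads in each DUX_DOX library and in none of the other 9. The mean log2 ratio was 2.00 higher in DUX_DOX than in EV_DOX (exact permutation test, two-sided, p = 0.1, the smallest that 3 against 3 allows). On a scale per kilobase of exon, Mt2 had 3.10 CPM per kb in EV_DOX, the ninth level among the 10 genes, and 52.3 CPM per kb in DUX_DOX, close to the 53.0 CPM per kb of Prdx1. The length used is every annotated exonic base of a gene, 3043 for Prdx1 and 588 for Mt2. Which transcripts were present was not tested, so ranks and near-equal levels on this scale are approximate. The overlap of Mt2 with Gm45774 leaves the absolute level of Mt2 uncertain here too. Whether a ratio of counts means more Mt2 than Mt1 transcript depends on that level.

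**Figure D3:**
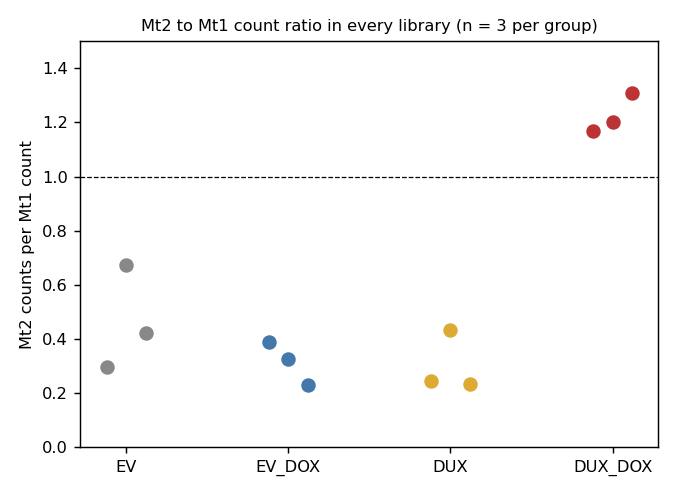
Mt2 counts per Mt1 count (vertical axis) in each library by group, 3 libraries per group, with equal counts at the dashed line. The DUX_DOX libraries sit between 1.17 and 1.31 and the other 9 between 0.229 and 0.674.

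Among the thiol cycle genes within the 10, Srxn1 stood apart. Srxn1 (ENSMUSG00000032802, chromosome 2, 152105516 to 152111376) had 70.5, 70.0 and 62.1 CPM in DUX_DOX and 17.6, 18.1 and 15.7 CPM in EV_DOX. It had 20.1, 18.0 and 21.1 CPM in EV and 13.4, 16.9 and 15.4 CPM in DUX. The DUX_DOX libraries were close together and far above every other library. Its log2 fold change of 1.98 (SE 0.10, adjusted p = 9.14e-09) corresponds to 3.94-fold. Prdx1 and Txnrd1, the other genes of this cycle within the 10, were not called. The thioredoxin gene Txn1, not among the 10, was called higher (log2 fold change 0.45, SE 0.08). Prdx1, by far the highest of the 10 per kilobase in each control group (44.8 to 50.1 CPM per kb), had 162, 155 and 167 CPM in DUX_DOX and 136, 158 and 163 CPM in EV_DOX. These groups overlapped, and the log2 fold change was 0.08 (SE 0.08, adjusted p = 0.497). Of the 50-base stretches in Prdx1 transcripts, 8.29% also occur in transcripts of other genes. Txnrd1 had 67.4, 72.3 and 68.2 CPM in DUX_DOX and 61.2, 61.7 and 66.4 CPM in EV_DOX, which did not overlap (log2 fold change 0.14, SE 0.08, adjusted p = 0.211).

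Hmox1 (ENSMUSG00000005413, chromosome 8, 75093621 to 75100589) had 16.4, 18.6 and 19.9 CPM in DUX_DOX and 8.32, 9.22 and 7.75 CPM in EV_DOX. Its log2 fold change was 1.12 (SE 0.18, adjusted p = 0.000392), with no overlap between the groups. In EV the values were 8.00, 9.06 and 7.98 CPM, and in DUX they were 6.72, 12.2 and 11.4 CPM, so that DUX 2 and DUX 3 lay between the empty vector and DUX_DOX libraries and DUX 1 did not. Macrophages also express Hmox1. The summed macrophage markers were 396.5, 385 and 551.4 CPM in DUX_DOX 1 to 3 and 258.5, 230.8 and 233 CPM in DUX 1 to 3. Both Hmox1 and these markers were higher in all 3 DUX_DOX libraries than in the other 9, and DUX_DOX 3 was the highest of the 12 in both. Among the DUX libraries, DUX 1 was the lowest in Hmox1 and the highest in the markers. Their part in the rise of Hmox1 was not tested.

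Nfe2l2 itself (ENSMUSG00000015839, chromosome 2, 75675513 to 75704641) rose by a small and even amount. It had 45.8, 48.3 and 50.01 CPM in DUX_DOX and 38.8, 38.5 and 37.2 CPM in EV_DOX. The other 6 libraries lay between 37.8 and 40.7 CPM, below every DUX_DOX library. The log2 fold change was 0.33 (SE 0.07, adjusted p = 0.00334), or 1.26-fold.

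For glutathione synthesis, the catalytic and the modifier subunit gave different values. Gclc (chromosome 9, 77754535 to 77794485) had 18.2, 21.2 and 18.5 CPM in DUX_DOX and 15.4, 15.4 and 13.4 CPM in EV_DOX, without overlap. Its log2 fold change of 0.39 (SE 0.14, adjusted p = 0.0591) missed the threshold. It passed in 4 of 21 alternatives, among them the fit without DUX 3 (adjusted p = 0.0172). DUX 3 was the lowest library for this gene, at 9.71 CPM. Gclm (chromosome 3, 122245557 to 122270732) had 15.2, 15.2 and 14.1 CPM in DUX_DOX and 13.7, 16.5 and 14.9 CPM in EV_DOX. It was the steadiest of the 10, with group means from 14.5 to 15.1 CPM (log2 fold change -0.02, SE 0.10, adjusted p = 0.923). Of its exonic bases 8.58% overlap other annotated genes.

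Nqo1, often used to read Nrf2 activity, did not follow Srxn1. Nqo1 (chromosome 8, 107388225 to 107403206) had 6.78, 6.22 and 6.96 CPM in DUX_DOX and 12.6, 8.13 and 8.06 CPM in EV_DOX. The highest DUX_DOX library was below the lowest EV_DOX library, and the log2 fold change was -0.53 (SE 0.20, adjusted p = 0.0621). Nqo1 was called lower in 5 of 21 alternatives: with upper-quartile factors (adjusted p = 0.0484), with a filter of at least 1 CPM in 3 libraries (0.0495), and without EV 3 (0.0406), EV_DOX 2 (0.0389) or EV_DOX 3 (0.0470). Without EV_DOX 1, its highest library in that group, the log2 fold change was -0.28 (adjusted p = 0.277). Without doxycycline the order was alike, with 7.43, 7.54 and 6.28 CPM in DUX and 8.94, 8.98 and 13.2 CPM in EV (log2 fold change -0.55, SE 0.19, adjusted p = 0.235). The highest values, in EV 3 and EV_DOX 1, fell in the libraries with the most tendon signal: the 8 tenocyte markers summed to 1062 CPM in EV 3 and 984.5 CPM in EV_DOX 1, and to between 106.8 and 326.1 CPM in the other 10. The part of tendon tissue in the level of Nqo1 was not tested.

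The second comparison asked what doxycycline chow changed in Dux muscle, DUX_DOX against DUX. It shares the DUX_DOX libraries with the comparison above, so its values stand beside the first and do not repeat it independently. The same 5 genes were called higher, with log2 fold changes of 3.43 (SE 0.37) for Mt2, 2.15 (SE 0.10) for Srxn1, 1.44 (SE 0.23) for Mt1, 0.85 (SE 0.17) for Hmox1 and 0.30 (SE 0.07) for Nfe2l2. Gclc (0.56, SE 0.14, adjusted p = 0.00981) and Prdx1 (0.24, SE 0.08, adjusted p = 0.0388) were called higher too. In all, 7 of the 10 genes were called higher and 0 lower, where 29.6% of all genes were called, 16.5% higher and 13.1% lower. DUX_DOX lay above DUX in every library for 8 of the 10, Txnrd1 included, against 26% of all genes, and 48.6% of all genes did not overlap in either direction. Prdx1 had 134, 139 and 136 CPM in DUX. Its call was lost in 10 of 20 alternatives, among them those without EV_DOX 2 and without each single DUX or DUX_DOX library (adjusted p from 0.0615 to 0.110 in these 7 fits). Txnrd1, Gclm and Nqo1 were not called, at 0.12 (SE 0.08), 0.03 (SE 0.10) and -0.09 (SE 0.20).

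**Figure D4:**
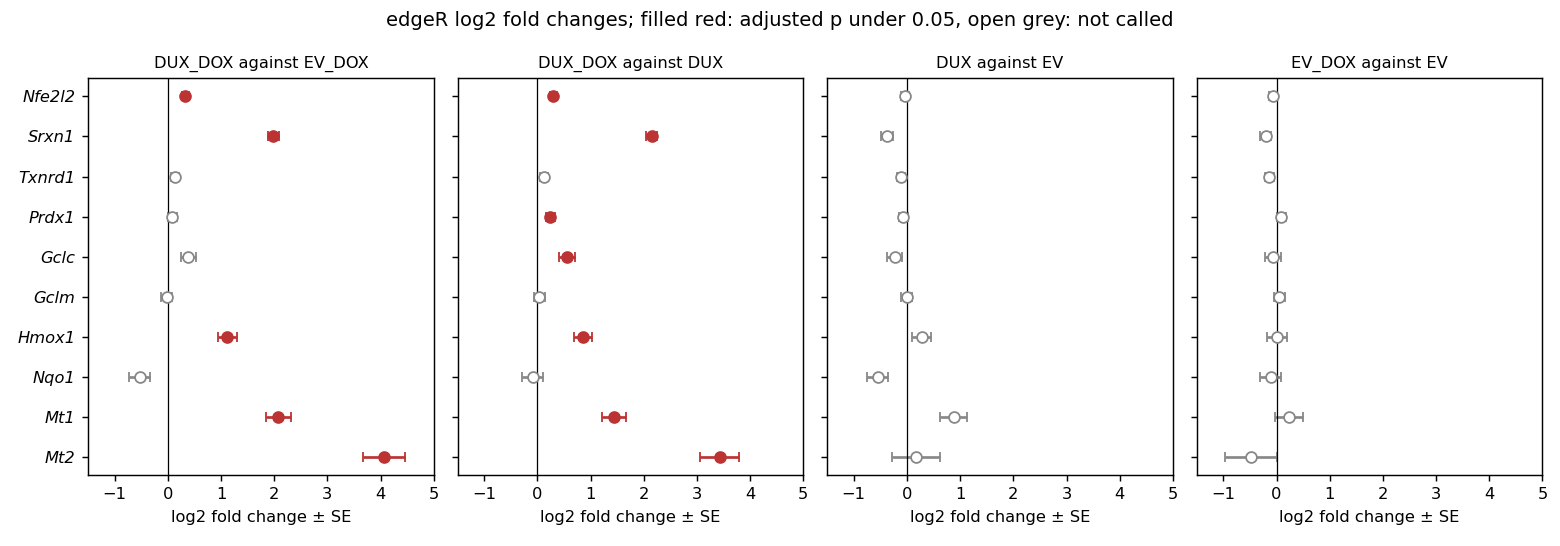
edgeR log2 fold change (horizontal axis) with its standard error for each gene in 4 comparisons, filled where the adjusted p was under 0.05. Filled points appear in both comparisons that hold DUX_DOX, 5 and 7 genes, all to the right of 0, and in neither of the other 2.

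Neither the vector alone nor the chow alone gave a call among the 10. In DUX against EV, 0 of 10 passed edgeR, as did 0 of all genes (0%), whereas 15.8% of all genes had an unadjusted p under 0.05 and DESeq2 called 153 genes, none of the 10. Of the 10, 3 had an unadjusted p under 0.05, namely Srxn1 (log2 fold change -0.38, adjusted p = 0.202), Mt1 and Nqo1, and the same 3 did not overlap between the groups, Mt1 being higher and the others lower. Ranges did not overlap for 22.9% of all genes in that comparison. In EV_DOX against EV, 0 of the 10 passed edgeR and 0 had an unadjusted p under 0.05, where 0.0392% of all genes passed and 7.83% had such a p. Only Nfe2l2 did not overlap between those groups, lower in EV_DOX (log2 fold change -0.07, SE 0.07), against 12.1% of all genes, 5.69% higher and 6.45% lower. Log2 fold changes of the 10 ran from -0.47 (Mt2, SE 0.48) to 0.24 (Mt1, SE 0.27) in this comparison of chows.

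The interaction of vector and chow tests whether the difference between Dux and empty vector itself differed between the chows. It was called for 5 of the 10, all higher, where 10.4% of all genes were called, 6.97% higher and 3.43% lower. The interaction was 3.90 (SE 0.61, adjusted p = 0.00113) for Mt2 and 2.36 (SE 0.15, adjusted p = 3.66e-07) for Srxn1, calls that stood in all 20 alternatives. It was 1.20 (SE 0.35, adjusted p = 0.0444) for Mt1, 0.84 (SE 0.25, adjusted p = 0.0495) for Hmox1 and 0.37 (SE 0.10, adjusted p = 0.0300) for Nfe2l2. When single libraries were left out, Mt1 was called only without EV 1, EV 3 or DUX_DOX 2, Hmox1 only without DUX 2 or DUX_DOX 1, and Nfe2l2 only without EV 2, EV_DOX 1, DUX 3 or DUX_DOX 1. In the other such fits the adjusted p reached 0.097, 0.108 and 0.077 in turn. With upper-quartile factors 56.9% of all interaction calls were higher, against 67% here.

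Beside the 10 genes, 10 lists of related genes held 155 measured genes, among them the 14 glucocorticoid-responsive genes described at the end. Of the 155, 34 were higher and 23 lower in DUX_DOX against EV_DOX (36.8% called, against 25.3% of all genes tested). Their median log2 fold change was -0.01. The lists too were chosen with earlier results of these data known, so these shares do not measure enrichment. Among all genes tested, 14.9% were called higher and 10.3% lower, the shares to set beside the counts of each list here and below. Of 11 partners and regulators of Nrf2, 3 rose and 0 fell, with a median of 0.04. Mafk, a small Maf partner, rose from 19.1 to 31.6 CPM (log2 fold change 0.73, SE 0.09, adjusted p = 4.37e-05). Keap1 had 60.8 CPM in DUX_DOX and 73.5 CPM in EV_DOX (log2 fold change -0.27, adjusted p = 0.0523) and passed in 8 of 21 alternatives, 4 of them without EV 2, EV_DOX 2, DUX 3 or DUX_DOX 3 (adjusted p from 0.0462 to 0.0499). Bach1, a repressor that competes with Nrf2, did not pass in this comparison (0.15, adjusted p = 0.369). Its interaction of vector and chow was called by edgeR (0.58, SE 0.16, adjusted p = 0.0373), a value that was not recalculated in the alternatives. Mean levels were 30.5 CPM in EV, 25.1 in EV_DOX, 22.6 in DUX and 27.8 in DUX_DOX.

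Thioredoxin and peroxiredoxin genes moved both ways, with 3 of 17 higher, 2 lower and a median of -0.16. Those that rose were Sesn2, a stress-induced sestrin (log2 fold change 1.41, SE 0.20), Prdx6, from 66.5 to 101 CPM (0.60, SE 0.09), and Txn1, the cytosolic thioredoxin (0.45, SE 0.08). Of 30 glutathione genes 2 rose and 4 fell, with a median of -0.20. Gss, which completes glutathione synthesis, rose by 0.74 (SE 0.18) and Slc3a2, the heavy chain of the cystine transporter, by 0.35 (SE 0.10, adjusted p = 0.0169), while Oplah, the oxoprolinase of the glutathione cycle, fell by 0.58. The Slc3a2 call was lost without EV_DOX 1, EV_DOX 3 or DUX_DOX 3 (adjusted p from 0.0528 to 0.0615).

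Of 6 genes that remove superoxide and peroxide, 1 rose and 1 fell, with a median of -0.20. Sod3, the extracellular superoxide dismutase, rose from 8.52 to 17.5 CPM (log2 fold change 1.03, SE 0.16). Sod2, its mitochondrial counterpart, fell from 279 to 213 CPM (adjusted p = 0.0232). That call was lost without EV_DOX 3, DUX_DOX 2 or DUX_DOX 3 (adjusted p from 0.0655 to 0.102). It was also lost with replicate number as a block within chow (adjusted p = 0.0596). Among 11 NADPH-supplying genes 4 rose and 2 fell, with a median of -0.02. The oxidative pentose phosphate enzymes G6pdx (0.88, SE 0.16) and Pgd (0.57, SE 0.11) rose, and Idh1, a cytosolic isocitrate dehydrogenase, fell by 0.45. Of 14 haem and iron genes 2 rose and 5 fell, with a median of -0.02. Slc40a1, the iron exporter ferroportin, rose from 33.0 to 80.6 CPM (1.29, SE 0.11) and Ftl1, the ferritin light chain, by 0.60 (SE 0.12), whereas Steap3, a ferrireductase, fell by 0.44.

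Of 16 other reported Nrf2 targets 4 rose and 3 fell, with a median of 0.16. Por, the cytochrome P450 reductase, rose by 0.78 (SE 0.11) and Gabarapl1, of the autophagosome, by 0.69 (SE 0.10), and Aox1, an aldehyde oxidase, fell by 0.56. Among 13 sources of reactive oxygen and nitric oxide 6 rose and 1 fell, with a median of 0.46. Among those that rose were Ncf1, a subunit of the phagocyte oxidase (1.62, SE 0.22), and the GTPase Rac2 (1.44, SE 0.26). The macrophage markers given above were higher in the same libraries, and their part in these rises was not tested. Of 23 zinc and copper genes 4 rose and 2 fell, with a median of 0.11. The zinc importers Slc39a6 (1.24, SE 0.20) and Slc39a14 (0.53, SE 0.11) and the copper importer Slc31a1 (0.53, SE 0.10) rose. Mtf1, the metal-sensing factor, did not pass (0.10, adjusted p = 0.562), nor did Slc30a1, a zinc exporter and target of Mtf1, at 10.2 CPM in DUX_DOX and 12.9 CPM in EV_DOX (-0.33, adjusted p = 0.0737, and 0.0441 without EV 3).

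**Figure D5:**
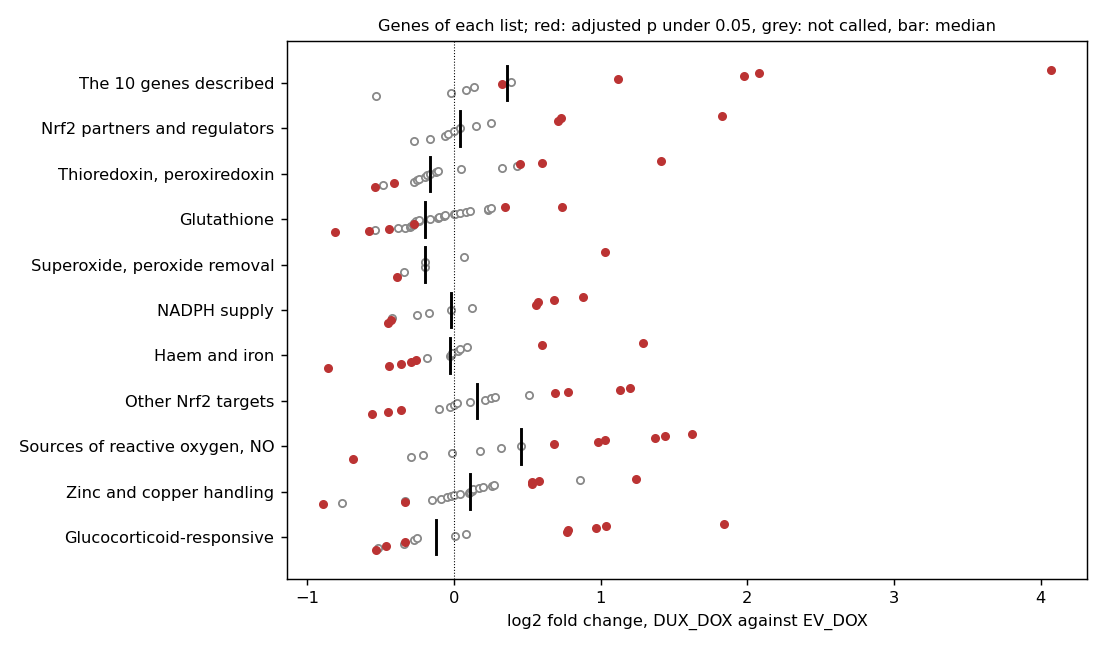
log2 fold change (horizontal axis) in DUX_DOX against EV_DOX of every measured gene in each pathway list, red where called and grey where not, with the list median as a bar. The 10 genes described have a median of 0.36, and pathway medians lie between -0.20 and 0.16 apart from 0.46 for sources of reactive oxygen and nitric oxide.

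Genes whose profile over the 12 libraries was most like that of a member were found by the root mean square difference of log2 CPM. Each profile was centred on its own mean. The search covered 9040 genes with a mean of at least 5 CPM. Predicted or unnamed genes and the members were left out, and genes at lower levels were not compared. Those nearest to Srxn1 were Rnf115, a ubiquitin ligase (0.18), Itga5, an integrin chain (0.22), and Taf4b (0.23). Nearest to Mt1 were Junb, an AP-1 subunit (0.22), Myom3, of the sarcomere (0.32), and Coro1a, an actin-binding protein of leukocytes (0.33). Nearest to Mt2 were the small heat shock gene Hspb7 (0.41), Ankrd2 (0.45) and Cryab, also a small heat shock gene (0.47). For Hmox1 they were Hsd17b12, the glucose transporter gene Slc2a1 and Lin37, each at 0.16. These distances describe 12 libraries of 4 groups, of which DUX_DOX sets most of the range, from 1.54 for Hmox1 to 4.83 for Mt2 on the log2 scale.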

How the data were processed

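Raw counts for 12752 genes in 12 libraries were deposited by the authors in 1 table. Per the submitters' processing notes, bcl2fastq 2.17.1.14, STAR and featureCounts were used with GRCm38, with other versions, strand setting and annotation not given in the sources used here. RNA (200 ng) was poly-A selected, per the labels' protocols. The lowest mean count of a gene is 10, so rarer genes are not analysed here. Libraries of a group differed by 4.82 to 25.5 chi-square per degree of freedom, so none was a duplicate.

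edgeR 4.0.16 in R 4.3.3 fitted 1 mean per group to all 12 libraries (TMM factors 0.916 to 1.124, default low-count filter, 12751 genes left), with two-sided quasi-likelihood tests and Benjamini-Hochberg adjustment within each contrast. Fold changes use a prior count of 0.125, and a standard error is the log2 fold change over the root of its F. Depth of 11880593 to 13811999 counts gave a median biological coefficient of variation of 10.6%. The labels do not say that libraries of a group are separate animals, so p-values measure the spread between libraries, which may be technical. Steps were tested on simulated data.

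The members and lists were chosen with earlier results of these data known. Named were all 10 members, in each pathway list up to 3 called genes with the smallest p and at least 5 CPM, always Keap1, Bach1, Mtf1 and Slc30a1, and the 3 most alike profiles (prior count 2) of 4 members. One gene that this rule names is not reported here. Loci, lengths and shared 50-base stretches came from GENCODE M21, promoters from RefSeq. Alternatives were RLE and upper-quartile factors, other filters, DESeq2 1.42.0, limma-voom (limma 3.58.1), only the groups compared, replicate blocks and leaving out each library.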

Additional observations from a re-analysis of the deposited data

Results flagged for a closer look

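For 5 genes the difference between Dux and empty vector was itself different on the 2 chows, by the interaction term of the edgeR fit. The interaction on the log2 scale was 3.90 for Mt2, 2.36 for Srxn1, 1.20 for Mt1, 0.84 for Hmox1 and 0.37 for Nfe2l2. The call stood in all 12 fits that left out 1 library for Mt2 and Srxn1, and was lost in 9 of 12 for Mt1, 10 of 12 for Hmox1 and 8 of 12 for Nfe2l2. An interaction was called for 10.4% of all genes. All 3 DUX_DOX libraries were the highest of the 12 for each of these 5 genes. The genes were picked by that call, so this order is not separate evidence. Gclc, whose interaction was not called, had the same order. The share of all genes with this order was not counted. DUX_DOX lay above EV_DOX without overlap for 21.4% of all genes, and above DUX for 26%.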

How the results depend on the processing

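Of 1665 recalculations of a named gene's value, 1594 stayed on the same side of the threshold, 51 lost and 20 gained a call, and none of the called values changed sign; 36 values never called changed sign. The rises of Mt2, Mt1, Srxn1, Hmox1 and Nfe2l2 in DUX_DOX against EV_DOX were called in all 21 alternatives. Leaving out 1 library gave 2109 (without DUX_DOX 3) to 3355 called genes in that comparison (3224 with all), 0 to 118 in DUX against EV (118 without EV 2), 0 to 10 in EV_DOX against EV (10 without EV_DOX 1), and 813 (without EV 3) to 2148 (without EV_DOX 1) for the interaction. Called members then numbered 0 to 1 in DUX against EV and 2 to 4 for the interaction. DESeq2 called 153 genes in DUX against EV and 12 in EV_DOX against EV, where upper-quartile factors called 1, and limma-voom and only the groups compared called 0.

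Opposite limbs were injected, but the labels do not say which libraries share an animal, and the replicate numbers were not taken to pair the samples: same-numbered Dux and empty vector libraries had deviations correlated from -0.10 to 0.18 on normal chow and -0.11 to 0.09 on doxycycline. With the replicate block over all libraries, 0 genes were called in EV_DOX against EV, and with the block within chow 3 members for the interaction. The block moved counts of called genes in DUX_DOX against EV_DOX to 3040, or 2817 within chow, with 6 members called in both, Gclc being added. The cause of these changes was not tested. Counts of 15 to 60 limit the precision of Mt2 outside DUX_DOX.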

Other observations

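Among 14 glucocorticoid-responsive genes, listed because glucocorticoids also induce metallothioneins, 5 rose and 3 fell in DUX_DOX against EV_DOX, with a median log2 fold change of -0.12, where 14.9% of all genes were called higher and 10.3% lower. Errfi1, a feedback inhibitor of the epidermal growth factor receptor, rose from 16.6 to 59.7 CPM (log2 fold change 1.84, SE 0.10), the clock gene Per1 from 52.6 to 103 CPM (0.97, SE 0.12) and the transcription factor Cebpd from 5.82 to 12.0 CPM (1.04, SE 0.18). Each passed edgeR, with an adjusted p of 2.62e-08, 5.87e-05 and 0.000977 in turn. Ddit4 (0.77, SE 0.15) and Dusp1 (0.78, SE 0.23) rose too. Those that fell were the kinase gene Sgk1, from 206 to 143 CPM (-0.53, SE 0.10), Klf9, from 132 to 95.5 CPM (-0.46, SE 0.12), and Nr3c1, the glucocorticoid receptor, from 81.8 to 65.2 CPM (-0.33, SE 0.11, adjusted p = 0.0479 by edgeR). These 5 genes lie outside the rule for named genes and were added after their values were seen. Their values were not recalculated in the alternatives.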
